A study of Mus musculus with 6 samples.

Results

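The genes described here are the MYC, MAX and MXD network: the 3 MYC paralogs (Myc, Mycn, Mycl), the shared partners Max and Mlx, and the antagonists Mxd1, Mxd4, Mxi1, Mnt and Mga. They were taken by gene name, not by any measured value, as the non-control probes whose RefSeq accession belongs to 1 of these 10 genes. This gave 12 probes out of 39318 with a usable spot on every array. Of the 10 genes, 9 passed the filter on dim signals and stood among the 23448 genes or unnamed transcripts tested, and Mxi1 did not.

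RNA was measured on 6 single-colour (Cy3) Agilent arrays, 1 for each biological replicate. Every sample came from female Trp53-/- (Trp-53 knockout) mice aged 8 weeks. Of the samples, 3 came from mice given a high-fat diet (HFD) and 3 from mice given a control diet (CD), in both cases from the age of 3 weeks and for 5 weeks; whether a sample pools animals is not given. Both diets therefore share the loss of Trp53, and no wild-type mouse was measured here. The labels give mammary gland as the tissue and speak of mammary epithelial cells in the sample descriptions, so which of them was hybridised is not settled.

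MYC proteins are transcription factors that bind DNA only as a pair with MAX, at the E-box, and activate genes of growth, ribosome assembly and division. MXD proteins, MXI1, MNT and MGA also pair with MAX, compete for the same sites and recruit repressors. MLX is a parallel partner, which pairs with the nutrient-sensing factors MLXIP and MLXIPL and with some MXD proteins and MNT. In the mammary gland MYC is known for driving epithelial growth. Its protein is short-lived, and the RNA levels here report only the transcript.

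The DNA word that the network's own dimers read is shown first, since 4 members carry it near their own start site. RefSeq promoter windows (GRCm38.p6, from 250 bases before to 50 after a start, 300 bases) were held for 9 of the 10 genes, in 11 windows; Myc had none. The E-box CACGTG, which reads the same on both strands, occurred in the windows of Max, Mlx, Mnt and Mxd4, and in 7.15% of all 32851 windows. The stretches follow, read along the gene's strand with the E-box in capitals. Each keeps up to 25 bases on either side and stops no more than 5 bases after the start site, which shortens that of Max.
Mxd4, chr5:34187899-34187954, minus strand: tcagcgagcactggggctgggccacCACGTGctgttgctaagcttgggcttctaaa
Mnt, chr11:74830776-74830831, plus strand: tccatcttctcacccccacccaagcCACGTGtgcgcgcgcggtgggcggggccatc
Mlx, chr11:101087225-101087280, plus strand: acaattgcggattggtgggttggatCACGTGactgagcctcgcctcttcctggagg
Max, chr12:76962244-76962276, minus strand: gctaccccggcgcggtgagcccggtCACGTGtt
The match began 219 bases before the start site in Mxd4, 123 in Mnt, 40 in Mlx and 3 in Max. The window of Mycn held a different word, TTTGGCGC, the form bound by E2F cell-cycle factors, searched on both strands. It occurred 2 times there and in 0.514% of all windows. The window of Mycn held no CACGTG, and TTTGGCGC is in capitals in this stretch.
Mycn, chr12:12941972-12942044, minus strand: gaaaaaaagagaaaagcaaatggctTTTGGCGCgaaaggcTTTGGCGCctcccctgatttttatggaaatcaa
A match is a description of these letters only, and the arrays carry no measure of binding there.

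Levels below are the log2 of an array's processed signal over its 75th percentile of signal, so a level of 0 is that percentile. A difference is the high-fat mean less the control mean, each over 3 samples. The percentile itself lay between 1326 and 1973 intensity units, and between 27241 and 29449 of 39429 probes per array were well above background. No spot was saturated, and the number of arrays limits the precision. The arrays lay on 3 slides: high-fat replicate 1 on the first, high-fat replicates 2 and 3 with control replicate 1 on the second, and control replicates 2 and 3 on the third. The second slide alone held both diets. Each slide had its own scan date, so slide and scan cannot be told apart.

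No member passed the test between diets. In limma 0 of the 9 measured members reached an adjusted p of 0.05, where 0.0171% of all genes did (4 genes, all lower), and 1 member (Mycn) had an unadjusted p under 0.05, where 13.3% of all genes did. The arrays of the 2 diets did not overlap in 1 of 9 members, again Mycn, against 17.2% of all genes. For a single direction the shares of all genes were 5.88% higher and 7.46% lower by the unadjusted p, and 8.47% higher and 8.75% lower by lack of overlap. With 9 members, 1 gene is a share near these backgrounds. Point estimates ran from -0.77 for Mxd4 to 0.76 for Mycl, while the median over all genes was -0.01. The intervals are wide, and not passing does not show that a member had equal levels under both diets.

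Myc (NM_010849), the gene whose protein the series title names, had levels of 2.67, 2.52 and 1.89 on high-fat replicates 1 to 3 and 2.12, 1.84 and 1.75 on control replicates 1 to 3. High-fat replicates 1 and 2 were the highest arrays, whereas high-fat replicate 3 lay between control replicates 1 and 2. The means were 2.36 ± 0.41 and 1.91 ± 0.19 (SD, n = 3 each), a difference of 0.45 (SE 0.23, limma adjusted p = 0.423). As a fold this is 1.37, with a 95% interval from 0.924 to 2.02. It ranged from 0.30 without high-fat replicate 1 to 0.69 without high-fat replicate 3. Within the shared slide it was 0.08, between high-fat replicates 2 and 3 and control replicate 1.

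Mycn (NM_008709), the paralog best known from the embryo and nervous system, went the other way from Myc in its point estimate. Its levels were -3.60, -3.43 and -3.76 under high-fat diet and -3.09, -3.33 and -2.94 under control diet, and it was well above background on all 6 arrays. Every high-fat array was lower than every control array, with high-fat replicate 2 and control replicate 2 the closest of them. The difference was -0.48 (SE 0.16, unadjusted p = 0.021, limma adjusted p = 0.327). It was -0.51 within the shared slide and between -0.58 and -0.39 when each array was left out. Under normexp background correction scaled to the 75th percentile it was 0.26, in a setting where the median of all genes was 0.27.

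Mycl (NM_008506), the third paralog, was dim but well above background on all 6 arrays. It had levels of -4.58, -4.84 and -4.12 under high-fat and -4.71, -5.92 and -5.18 under control diet. Control replicate 1 lay among the high-fat arrays and control replicates 2 and 3 below them. The difference of 0.76 (SE 0.34, limma adjusted p = 0.386) had a 95% interval from -0.07 to 1.58 and fell to 0.43 without control replicate 2, the lowest array. Within the shared slide it was 0.23, and with normexp and quantile normalization 0.27. The 3 paralogs thus had 2 positive and 1 negative estimate.

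**Figure D1:**
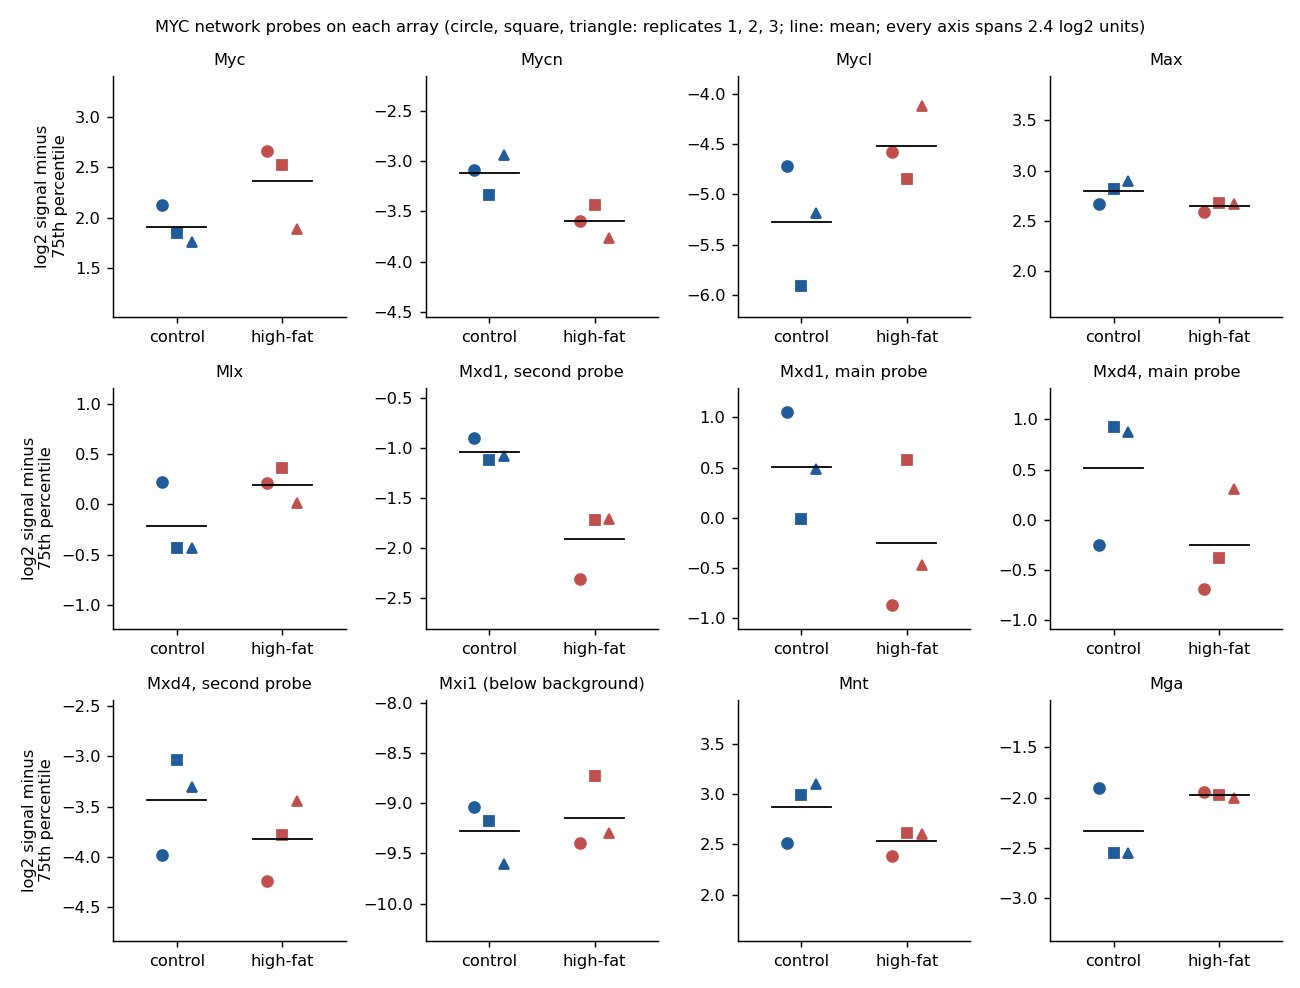
Level of each of the 12 probes (y axis: log2 level relative to the 75th percentile of its array) on the 3 control (blue) and 3 high-fat (red) arrays, with the mean as a line and replicates 1 to 3 as circle, square and triangle. In Mycn and in the second probe of Mxd1 all high-fat arrays lie under all control arrays, and in Mlx, Mxd4, Mnt and Mga control replicate 1 lies apart from the other control arrays, near the high-fat ones.

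Max (NM_008558), the partner that MYC and its antagonists share, varied least of the members. Its levels were 2.59, 2.68 and 2.67 under high-fat and 2.67, 2.82 and 2.90 under control diet. The whole range over the 6 arrays was 0.31, smaller than that of all but 12.2% of genes. Control replicates 2 and 3 were the highest arrays, and control replicate 1 lay within the high-fat range. The difference was -0.15 (SE 0.12, limma adjusted p = 0.571), with a 95% interval from -0.44 to 0.14. On the shared slide alone it was 0.01, and leaving out control replicate 3 gave -0.10.

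Mlx (NM_011550), the partner on the nutrient-sensing side, had levels of 0.21, 0.36 and 0.02 under high-fat and 0.23, -0.44 and -0.43 under control diet. Control replicate 1 lay within the high-fat arrays, and control replicates 2 and 3, which share a slide, lay below every other array. The difference of 0.41 (SE 0.22, limma adjusted p = 0.433) was 0.63 without control replicate 1 and -0.04 within the shared slide.

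Among the antagonists, Mxd1 (NM_010751), a repressor that rises as cells leave division and differentiate, was measured by 2 probes. The brighter probe gave -0.87, 0.58 and -0.47 under high-fat and 1.06, -0.01 and 0.49 under control diet, with high-fat replicate 2 above 2 of the control arrays. Its difference was -0.76 (SE 0.43, limma adjusted p = 0.456), and its range of 1.92 over the arrays was wider than that of 91.8% of genes. The difference was -0.46 without high-fat replicate 1, -0.49 without control replicate 1 and -1.18 without high-fat replicate 2. The dimmer probe was tighter within each diet.

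That second Mxd1 probe gave -2.30, -1.72 and -1.71 under high-fat and -0.90, -1.12 and -1.08 under control diet. The diets did not overlap, as in 17.2% of all genes, and the share over all probes was not counted. In the fit over 28675 probes its difference was -0.87 (SE 0.19, unadjusted p = 0.0036, limma adjusted p = 0.226), the lowest p of any member probe. It did not pass; 0.0174% of all probes passed and 13.8% had an unadjusted p under 0.05. It was -0.81 within the shared slide, and -0.97 to -0.68 when each array was left out. Both probes were named through the same RefSeq transcript, and they agree in sign but not in the order of the arrays.

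Mxd4 (NM_010753), an antagonist of resting and differentiated cells, had levels of -0.69, -0.38 and 0.31 under high-fat and -0.25, 0.92 and 0.87 under control diet on its brighter probe. Control replicates 2 and 3 were the highest arrays and control replicate 1 lay within the high-fat range. The difference was -0.77 (SE 0.40, limma adjusted p = 0.424), from -1.15 without control replicate 1 to -0.55 without high-fat replicate 1, and 0.22, with the opposite sign, within the shared slide. The second Mxd4 probe differed by -0.38 (SE 0.31, limma adjusted p = 0.561) and by 0.37 within the shared slide. It was -0.17 without high-fat replicate 1, -0.18 without control replicate 2 and -0.66 without control replicate 1.

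Mnt (NM_010813), the widely expressed antagonist that can pair with MAX or MLX, had levels of 2.38, 2.61 and 2.61 under high-fat and 2.52, 2.99 and 3.10 under control diet. Control replicates 2 and 3 again stood above the 4 other arrays. The difference was -0.33 (SE 0.19, limma adjusted p = 0.449) and 0.09 within the shared slide. It was -0.51 without control replicate 1 and -0.22 without control replicate 3.

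Mga (NM_013720), a very large protein that joins MAX to a polycomb-like repressor complex, had the tightest high-fat arrays of any member: -1.94, -1.97 and -2.01. The control arrays were -1.90, -2.55 and -2.55, so that control replicate 1 was the highest of all 6 and the other control arrays were the lowest. The difference was 0.36 (SE 0.20, limma adjusted p = 0.450), 0.58 without control replicate 1 and -0.09 within the shared slide.

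Mxi1, the last antagonist, was represented by 1 probe, for transcript NM_001008542. It gave between 1.76 and 3.86 intensity units and was not well above background on any of the 6 arrays. No fold is given for it, and a probe of 1 transcript does not speak for other Mxi1 transcripts.

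**Figure D2:**
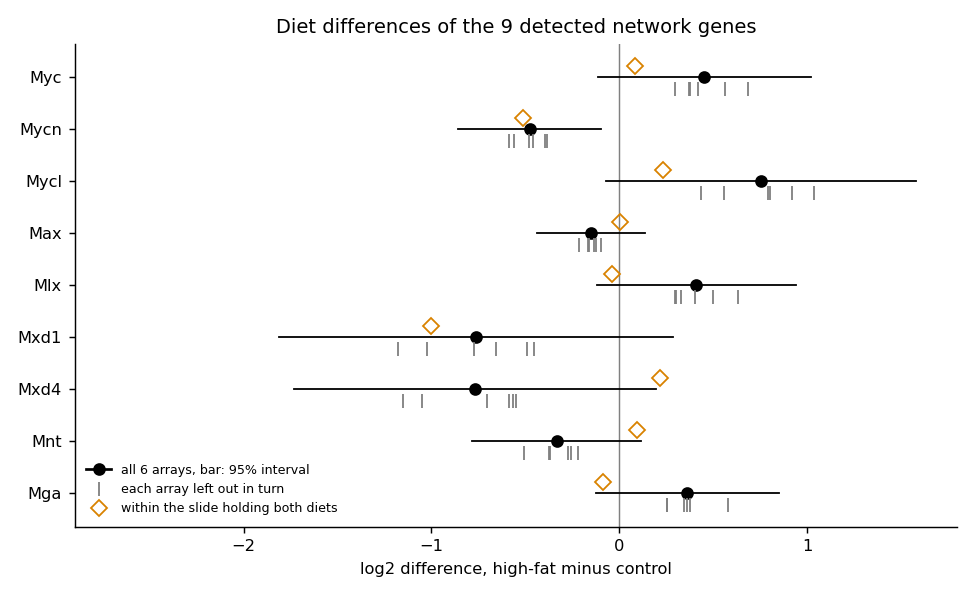
Log2 difference, high-fat minus control (x axis), of the 9 members that passed the filter (y axis). Black points and bars are the fit to all 6 arrays with its 95% interval, grey ticks the fits without each array, and open diamonds the estimate within the slide that holds both diets. The Mycn interval alone lies wholly to one side of 0, and the diamonds of Max, Mlx, Mxd4, Mnt and Mga lie across 0 from their points.

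Control replicate 1 lay inside the range of the 3 high-fat arrays in 54.7% of all genes and in 6 of the 9 members, a count near that background. Control replicates 2 and 3 did so in 36.3% and 36.7% of all genes and in 1 of the 9 members each. High-fat replicate 1 is alone on the first slide, and control replicates 2 and 3 are the whole of the third. For these arrays slide and diet cannot be told apart. Myc, Mycn, Mycl and Mxd1 kept the sign of their differences within the shared slide, which compares high-fat replicates 2 and 3 with control replicate 1 alone, and Max, Mlx, Mxd4, Mnt and Mga did not.

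When limma was allowed to weight arrays by their fit, 6 of the 9 members passed: Myc (0.69, adjusted p = 0.032), Mlx (0.66, adjusted p = 0.030) and Mga (0.55, adjusted p = 0.035) as higher, and Mxd4 (-1.20, adjusted p = 0.028), Mnt (-0.51, adjusted p = 0.042) and Mycn (-0.52, adjusted p = 0.045) as lower. The second Mxd1 probe passed as lower (-0.83, adjusted p = 0.027). In that setting 23.1% of all genes passed, 5412 in number. It gave control replicate 3 a weight of 4.69 and high-fat replicate 3 and control replicate 1, both on the shared slide, the lowest weights, 0.418 and 0.338.

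The balance of activators to antagonists was taken per array. Each gene was centred on its mean over the 6 arrays, since levels of different probes cannot be set against each other, and the mean of Mxd1, Mxd4, Mnt and Mga was subtracted from the mean of Myc, Mycn and Mycl. The balance was 0.68, 0.11 and 0.13 on high-fat replicates 1 to 3 and -0.01, -0.56 and -0.36 on control replicates 1 to 3. All high-fat arrays lay above all control arrays, with high-fat replicate 2 and control replicate 1 the closest. Among single genes 17.2% kept the diets apart in either direction, and no such share was taken for balances of other genes. The difference of the means, 0.31 ± 0.32 and -0.31 ± 0.28 (SD, n = 3 each), was 0.62, and no p is given for a sum over chosen genes.

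Activators and antagonists were also taken apart. The activator mean was 0.20, 0.12 and 0.04 under high-fat and 0.15, -0.43 and -0.08 under control diet, a difference of 0.24. Its genes did not move together: Myc differed by 0.45, Mycn by -0.48 and Mycl by 0.76. Myc and Mycn nearly cancelled there, so the activator difference rests on Mycl, the dimmest of the members that passed the filter. The antagonist mean was -0.48, 0.01 and -0.09 under high-fat and 0.15, 0.13 and 0.28 under control diet, a difference of -0.38. Within the shared slide the activators differed by -0.07, the antagonists by -0.20 and the balance by 0.13. With Myc as the only activator the balance differed by 0.83, with its highest value of 1.01 on high-fat replicate 1, and there high-fat replicate 3 (-0.15) and control replicate 1 (-0.16) were level. Set against single antagonists, Myc minus Mxd1 differed by 1.21 (1.08 within the shared slide), Myc minus Mxd4 by 1.22 (-0.13 there), Myc minus Mnt by 0.79 (-0.01 there) and Myc minus Mga by 0.09 (0.17 there). Myc minus Max, its obligate partner, differed by 0.60, and by 0.08 within the shared slide.

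**Figure D3:**
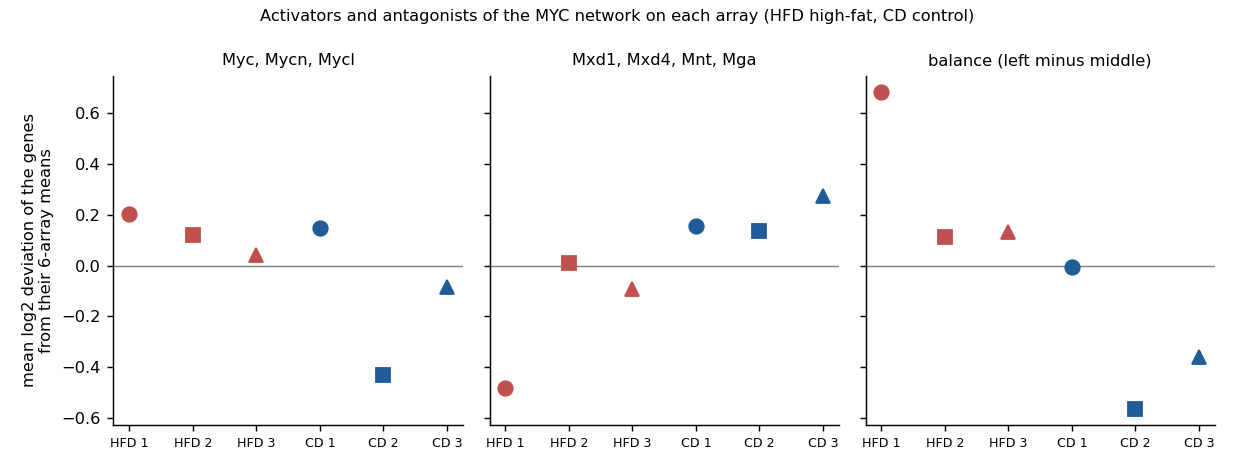
Mean log2 deviation of the genes from their 6-array means (y axis) for the activators, for the antagonists and for the balance between them, on each array (x axis; red high-fat, blue control). The balance runs from 0.68 on high-fat replicate 1 to -0.56 on control replicate 2, with control replicate 1 at -0.01 next to high-fat replicates 2 and 3.

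The genes whose levels followed Myc most closely over the 6 arrays were sought among 15147 named genes well above background on every array. The closest were Rrp12 (Pearson r = 0.999), a factor of ribosome subunit maturation and export, and Nop58 (r = 0.999), a core protein of the box C/D particles that methylate ribosomal RNA. Then came Mrpl49 (r = 0.998), of the mitochondrial ribosome, Cd3eap (r = 0.997), a subunit of RNA polymerase I, and Lrrc8b (r = 0.996), of a volume-regulated anion channel. Their order of arrays was that of Myc, with high-fat replicates 1 and 2 highest, then control replicate 1, then high-fat replicate 3. Rrp12 had levels of -1.16, -1.33 and -2.22 under high-fat and -1.90, -2.35 and -2.41 under control diet. It differed by 0.65 between diets (SE 0.31, limma adjusted p = 0.400), and Nop58 by 0.34 (SE 0.19, limma adjusted p = 0.439). These correlations describe 6 arrays that share slides and diets, 21 genes had r over 0.99, and no test is given.

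**Figure D4:**
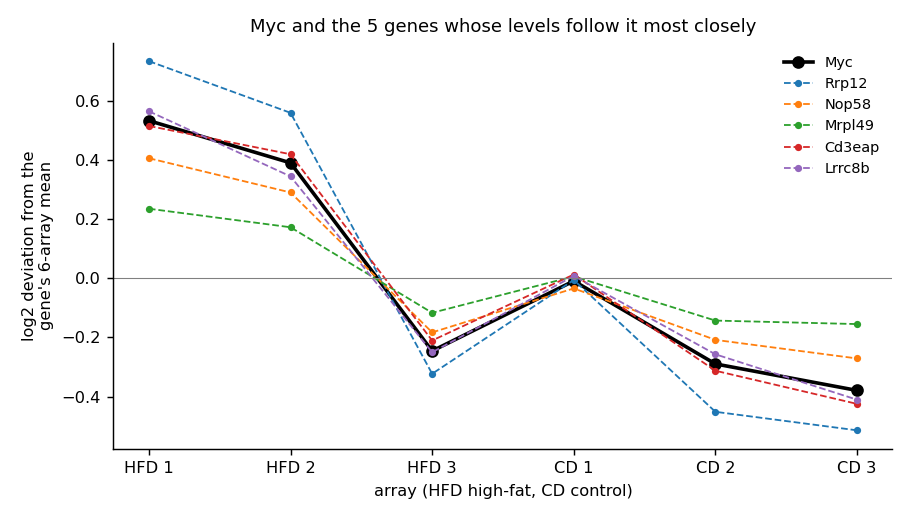
Log2 deviation from each gene's 6-array mean (y axis) for Myc (black) and the 5 genes most like it, on each array (x axis). All 6 lines put high-fat replicates 1 and 2 highest, control replicate 1 near 0, and high-fat replicate 3 and control replicates 2 and 3 below 0.

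The rest of the network and the proteins that work with it were taken from fixed lists, and 0 of their 86 measured genes passed limma's test over all genes, while 10 (11.6%) had an unadjusted p under 0.05, a share under the 13.3% of all genes. The genes named from them are therefore a description of the lists. Where a lack of overlap between diets is stated for one of them, 17.2% of all genes had it too. Of the other network genes, Mxd3, an antagonist expressed in dividing cells, had levels of -1.31, -1.17 and -1.31 under high-fat and -1.10, -0.73 and -0.77 under control diet. The diets did not overlap (-0.40, SE 0.14, unadjusted p = 0.032, limma adjusted p = 0.352). The MLX partners Mlxip and Mlxipl differed by 0.24 (SE 0.21) and -0.20 (SE 0.16). Of the MLX targets, Txnip, a glucose-responsive inhibitor of thioredoxin, differed by -0.67 (SE 0.24, limma adjusted p = 0.346) and Arrdc4, its relative, by -0.04 (SE 0.21).

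Among proteins that bind MYC, 4 of 5 were measured, with a median difference of 0.03. Mycbp, which binds its amino terminus, differed by 0.68 (SE 0.24, limma adjusted p = 0.343), with no overlap between diets, while Bin1, a MYC-binding adaptor, differed by -0.17 (SE 0.20). The 15 coactivators had a median of 0.05, 10 of them positive, where 11478 of all 23448 genes were positive and 11970 negative. Actl6a, an actin-related subunit of chromatin complexes, differed by 0.56 (SE 0.21, limma adjusted p = 0.357). Trrap, the large scaffold that MYC uses to bring acetyltransferases, differed by -0.25 (SE 0.12, limma adjusted p = 0.399), with no overlap between diets. The 13 corepressors of the MXD side had a median of 0.17, 11 of them positive. Hdac2, a histone deacetylase of the SIN3 complex, differed by 0.64 (SE 0.20, unadjusted p = 0.017, limma adjusted p = 0.318) with no overlap between diets, and Ncor1, a corepressor scaffold, by 0.30 (SE 0.14). The 9 partners of MGA in its repressor complex had a median of 0.10, among them the chromatin-binding protein L3mbtl2 (0.38, SE 0.19) and the ring-finger protein Pcgf6 (0.40, SE 0.22). Of 9 germ-line genes that MGA and MAX hold silent elsewhere, 6 passed the filter. Mael, of the piRNA pathway, passed it through the control arrays, being well above background on all 3 of those and on 1 of 3 high-fat arrays, so no difference is given for it.

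Genes that MYC activates had a median of 0.21 over 24 genes, 19 of them positive. Over all 23448 genes the median was -0.01, with 11478 positive and 11970 negative. Pa2g4, a growth-regulated RNA-binding protein, differed by 0.87 (SE 0.35, limma adjusted p = 0.373), Nme1, a nucleoside diphosphate kinase, by 0.56 (SE 0.20, limma adjusted p = 0.349) and Gnl3, a nucleolar GTPase, by 0.64 (SE 0.29, limma adjusted p = 0.391). Odc1, a direct E-box target that makes polyamines, had the smallest p and the opposite sign, at -0.67 (SE 0.16, unadjusted p = 0.0045, limma adjusted p = 0.240), with all high-fat arrays lower. Genes that MYC represses had a median of -0.21 over 9 genes, 7 of them negative. Gas1, a growth-arrest protein, had levels of 0.37, 0.81 and 0.93 under high-fat and 1.93, 2.05 and 2.11 under control diet (difference -1.33, SE 0.18, limma adjusted p = 0.117). Cdkn2b, an inhibitor of CDK4, differed by -0.75 (SE 0.29, limma adjusted p = 0.357), with no overlap between diets. Pvt1, the noncoding neighbour of Myc, differed by -0.13 (SE 0.20, limma adjusted p = 0.759).

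**Figure D5:**
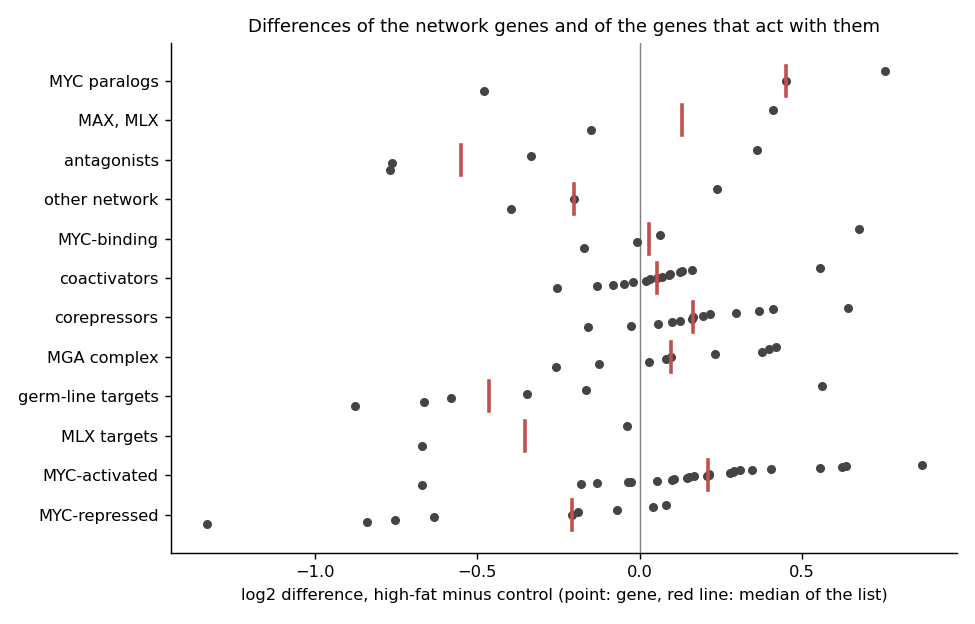
Log2 difference, high-fat minus control (x axis), of each measured gene (point) in the network and in the lists of genes that act with it (y axis), with the list's median as a red line. Medians lie between -0.55 for the antagonists and 0.45 for the MYC paralogs, and no gene shown passed an adjusted p of 0.05. The germ-line targets include Mael, which passed the filter through the control arrays and is not read as a difference.

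Cell type markers moved with some of these values. Luminal markers (17 of 18 well above background on all arrays) averaged 1.40, 1.61 and 0.68 on the high-fat arrays and 1.07, 0.45 and 0.55 on the control arrays, and so were high on the arrays where Myc was high. Singly, 16 luminal markers were higher under high-fat diet and 2 lower. The MYC-activated genes, at 4.03, 3.91 and 3.62 and then 3.78, 3.56 and 3.61, were highest on high-fat replicates 1 and 2 too. High-fat replicates 1 and 2 also stood together at one end of the first principal component of all tested genes. Basal markers (12 of 12 detected) ran from 2.08 to 2.28 under high-fat and from 1.15 to 1.55 under control diet. Fibroblast markers (10 of 10) ran from 3.79 to 4.85 and from 4.44 to 5.25, with high-fat replicate 3 among the control arrays, as it was for Myc. Singly, 8 fibroblast markers were lower under high-fat diet and 2 higher, from -1.80 for Lum to 0.15 for Dpt. The MYC-repressed genes averaged 0.68 under high-fat and 1.12 under control diet, and skeletal muscle markers (10 of 12) averaged -3.46 to -3.28 and -2.36 to -1.94. Of the 11 muscle markers measured, 1 passed the adjusted test as lower, where 4 of all genes did. Without overlap between diets 8 of them were lower, against 8.75% of all genes. The 6 division markers, all detected, averaged 2.42, 2.25 and 2.20 under high-fat and 2.26, 1.97 and 2.10 under control diet. The diets overlapped there, with control replicate 1 above high-fat replicates 2 and 3. Adipocyte markers, 6 of 9 well above background on all arrays, averaged -3.91 to -3.61 under high-fat and -4.37 to -3.99 under control diet, without overlap. The single adipocyte markers disagreed: 6 were higher and 3 lower, with a median difference of 0.16. Cfd, the adipocyte protease adipsin, had the largest difference, 1.78 (SE 0.27, limma adjusted p = 0.132). Lipe differed by -0.29 (SE 0.13, limma adjusted p = 0.385), with all high-fat arrays lower. The part of cell makeup in any of these differences was not tested, and in RNA from a mixed sample fewer cells of a type and less RNA per cell cannot be told apart. Of the other markers, macrophage genes were well above background on all arrays in 6 of 7 cases, T and NK cell genes in 4 of 7, endothelial genes in 5 of 5, keratinocyte genes in 4 of 5 and B cell genes in 0 of 4.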

How the data were processed

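Agilent Feature Extraction 11.0.1.1 made the scanner files that the authors deposited, per the file headers. These give linear intensity per spot, as a processed signal (background subtracted, detrended) and as unprocessed medians of spot and surround. The deposited value table, likewise intensity, was 1 constant per array away from the processed signal (99.9% of values within 1%), close to its 75th percentile; its column medians were 0.134, 0.134, 0.137, 0.134, 0.140 and 0.134 (high-fat, then control replicates 1 to 3). It served as an alternative.

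Control and outlier spots were left out, spots of a probe averaged, and 111 probes lacking one on some array dropped. A probe counted as well above background where all its usable spots did. Probes were named through RefSeq accessions (27421 of 39429 matched 1 symbol). A probe needed this on at least 3 of 6 arrays, and the probe with the highest mean stood for a gene. The diet comparison used limma 3.58.1 under R 4.3.3 (lmFit, eBayes, two-sided, no covariates, Benjamini-Hochberg over all genes, or all probes for second probes, threshold 0.05). With 3 samples against 3 an exact permutation test cannot go below 0.10, and limma instead borrows the spread of all genes. The p-values measure the spread between samples that the design text calls biological replicates.

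Members, lists and settings were chosen with earlier results of these data known. Named genes were all members with every probe, up to 4 genes of each list by smallest p, and the 5 genes most correlated with Myc. The fit was tested on simulated data with each gene's real mean and spread, but with independent noise per gene and no slide effect. For high-fat against control and 23448 genes it called 37.8% of changes of 1 log2 unit, 80% of those of 2 and 90.5% of those of 3. The real arrays share slides, so these rates need not hold for them. Alternatives covered scaling, background, filter, probe rule, variance model, array weights, slide, replicate number, the deposited table and leaving out each array. Protein and probe sequences were not used here.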

Additional observations from a re-analysis of the deposited data

How the results depend on the processing

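Against 4 genes past an adjusted p of 0.05 in limma, the count was 0 with quantile normalization, with normexp and the 75th percentile, without a filter on dim probes, with slide as a block and with the deposited table, 2 with the array median, 7 with normexp and quantile normalization, 7 for probes detected on all 6 arrays and 5412 with array weights, and 0 to 37 when each array was left out (37 without high-fat replicate 3, 0 without any other). Against 5 probes it was 0 with normexp and the 75th percentile, without the filter, with slide as a block and with the deposited table, 8 with normexp and quantile normalization, 8 for probes detected on all arrays, 6853 with array weights and 0 to 122 when each array was left out. At an unadjusted p under 0.05 these settings gave 1103 to 9795 genes. Members past the test numbered 0 in every setting run except array weights (6), and genes of the other lists 0 except with array weights (19).

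Myc and Mycl were positive and Mxd1, on both probes, negative in every setting run. Signs turned with normexp and the 75th percentile, which put the median of all genes at 0.27, for Mycn (0.26) and the second Mxd4 probe (0.17), and with slide as a block for Max (0.0054), Mlx (-0.037), Mxd4 (0.22), its second probe (0.37), Mnt (0.094) and Mga (-0.088); that block leaves the shared slide alone. With normexp and quantile normalization Mycl was 0.27, Mycn -0.27 and the second Mxd4 probe -0.24. With normexp and the 75th percentile Max was -0.25 and the second Mxd1 probe -0.56. The balance was 0.13 with slide as a block and 0.43 to 0.77 when each array was left out. The deposited table holds no probe of Mlx and only the second probes of Mxd1 and Mxd4. The cause of these changes was not tested beyond the fewer arrays of the slide block.

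Whether the replicate numbers of the labels pair the arrays is not settled. Same-numbered arrays deviated together with correlations of 0.33, -0.14 and 0.25. High-fat replicates 1 to 3 were most like control replicates 1, 1 and 3, so replicates 1 and 3 matched their own number and replicate 2 did not. With 3 arrays per diet this check cannot decide it. With replicate number as a block 0 genes, 0 probes and 0 members passed. At an unadjusted limma p under 0.05 that block gave 4044 genes and 3 members, against 3129 genes and 1 member without it.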
